A study of Mus musculus with 12 samples.

Results

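The 10 genes described here make, take up and receive serotonin, and they were chosen by name: Tph2, Slc6a4 and Fev of the serotonin neuron, and the receptor genes Htr1a, Htr1b, Htr2a, Htr2c, Htr3a, Htr4 and Htr7. They are 10 of 55385 genes in the expression table. All 10 passed the filter of a mean FPKM (fragments mapped to a gene, scaled for transcript length and for all mapped fragments of the library) of at least 0.1 over the 12 libraries, which 21393 genes passed. Slc6a4 and Fev passed it only through the libraries C_O72 and MS_W95, which are described below. The levels of the 10 genes were read in 12 brain libraries of male wild-type C57/BL6J mice, bought at 8 weeks of age, with 3 mice in each of 4 groups. C_W mice were controls given water, C_O mice were controls given krill oil, MS_W mice underwent chronic unpredictable mild stress (CUMS, a series of mild stressors applied in changing order) and were given water, and MS_O mice underwent CUMS and were given krill oil. CUMS lasted 4 weeks, and krill oil, an oil rich in n-3 fatty acids bound to phospholipids, was given for 5 weeks at 200 mg/kg/day. Each library is 1 mouse and is named by its group and mouse number.

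In the brain, serotonin is made by neurons whose cell bodies lie in the raphe nuclei of the midbrain and hindbrain and whose axons reach nearly all other regions. Tph2 (tryptophan hydroxylase 2) carries out the rate-limiting step of serotonin synthesis in these neurons, Slc6a4 (the serotonin transporter) returns released serotonin to them and is the target of the common antidepressants, and Fev (Pet-1) is an ETS-family transcription factor that sets their identity. mRNA of these genes stays mainly near the cell body, so a piece of brain without raphe nuclei holds serotonin fibres but little of this mRNA. The receptor genes are read mainly in the target cells. Htr1a and Htr1b encode receptors that lower cyclic AMP through Gi, Htr2a and Htr2c encode receptors that act through Gq, Htr4 and Htr7 encode receptors that raise cyclic AMP through Gs, and Htr3a encodes a subunit of an ion channel.

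In the coordinates of the table, which is on mm10, Tph2 lies at chr10:115078641-115185022 on the minus strand, Slc6a4 at chr11:76998603-77032340 on the plus strand and Fev at chr1:74881509-74885419 on the minus strand. The stretch before the start site of each is shown because these genes were high in the same libraries, as described below, and because Fev binds ETS sites, whose core is GGAA. The sequences are those of RefSeq on GRCm38.p6, they run 5′ to 3′ on the strand of the gene from base -250 to base -16 counted from the start site, and capitals mark each GGAA or, for the other strand, TTCC. They cover chr10:115185038-115185272, chr11:76998347-76998581 and chr1:74885424-74885658.
Tph2: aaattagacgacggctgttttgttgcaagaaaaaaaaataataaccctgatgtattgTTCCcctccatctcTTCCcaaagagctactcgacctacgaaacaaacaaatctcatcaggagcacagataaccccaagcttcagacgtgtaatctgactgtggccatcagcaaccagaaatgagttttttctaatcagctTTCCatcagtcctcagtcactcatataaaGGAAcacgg
Slc6a4: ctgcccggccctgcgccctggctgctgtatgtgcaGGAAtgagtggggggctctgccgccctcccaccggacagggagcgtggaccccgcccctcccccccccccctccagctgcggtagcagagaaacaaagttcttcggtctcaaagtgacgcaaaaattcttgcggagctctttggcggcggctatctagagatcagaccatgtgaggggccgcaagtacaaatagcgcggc
Fev: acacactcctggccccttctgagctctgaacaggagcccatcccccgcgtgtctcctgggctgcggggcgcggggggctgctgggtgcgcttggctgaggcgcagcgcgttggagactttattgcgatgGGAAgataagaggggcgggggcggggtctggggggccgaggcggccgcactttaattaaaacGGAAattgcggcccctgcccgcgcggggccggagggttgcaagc
In these 235 bases GGAA was found on either strand at 4 places before Tph2, at 1 place before Slc6a4 and at 2 places before Fev. GGAA is a short motif, and 92.27% of 32817 promoters of the same length held it, with a median of 3 matches. Of the 8 members with an entry in the promoter table, only Tph2 held TATAAA, whose first base was base -30, and 11.93% of all promoters held that motif on either strand. The 3 windows differed in base composition, with 41.7% G and C before Tph2, 63.4% before Slc6a4 and 68.1% before Fev. A match is a string of letters and was not tested as a binding site.

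The libraries of mouse 72 of the C_O group and mouse 95 of the MS_W group stood apart from the other 10. Pearson's r of log2(FPKM + 1) over the tested genes was 0.970 between C_O72 and MS_W95, 0.920 to 0.937 between either of them and the other 10 libraries, and 0.959 to 0.986 among the other 10. The labelled tissue is brain, and the study's methods state that whole brains were taken. The neuron marker list (Snap25, Syt1, Rbfox3, Tubb3) was high in every library, at a mean log2(FPKM + 1) of 6.69 to 7.48. A list of 12 hindbrain genes (10 Hox genes, Slc6a5 and Slc6a2) had a level (its genes' mean log2(FPKM + 1)) of 2.31 in C_O72, 1.49 in MS_W95 and at most 0.01 in the other 10 libraries. All 12 were at or above 0.1 FPKM in C_O72 and in MS_W95, and none was in any other library. These genes were thus below 0.1 FPKM in 10 of 12 libraries, whereas the methods state whole brains. The raphe nuclei, where the neurons of Tph2, Slc6a4 and Fev lie, belong to the midbrain and the hindbrain. Which part of the brain each library holds was not tested. The cerebellum list (Pcp2, Gabra6, Cbln1 and others) was at 4.88 in C_O72, at 6.46 in MS_W95 and between 1.07 and 1.42 in the other 10, and the cortex list was at 2.16, at 1.97 and between 3.02 and 4.65. In 28.1% of tested genes C_O72 and MS_W95 both lay above, or both lay below, all other libraries. Each comparison of groups is therefore given with all 12 libraries and with the 10 libraries other than these.

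The genes of the serotonin neuron were found almost only in those libraries. Tph2 was at 20.5 FPKM in MS_W95 and 3.13 FPKM in C_O72. In the other 10 libraries it was at 0.252, 0.0642 and 0.389 FPKM in C_W, at 0.364 and 0.0001 FPKM in C_O, at 0.202 and 0.0868 FPKM in MS_W, and at 0.223, 0.160 and 0.0781 FPKM in MS_O. MS_W95 thus stood 52.6-fold above the highest of the 10, C_O72 stood 8.03-fold above it, and the groups of the remaining mice overlapped. A value of 0.0001 is the value the table gives to a gene without an estimate.

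Slc6a4 followed Tph2. It was at 11.3 FPKM in MS_W95 and 1.54 FPKM in C_O72, against 0.0001 FPKM in all 3 C_W libraries, in C_O15 and in MS_O13. The 5 remaining libraries had 0.0106 FPKM (C_O30), 0.0129 and 0.0143 FPKM (MS_W31 and MS_W75), and 0.0505 and 0.0638 FPKM (MS_O46 and MS_O78). MS_W95 was 176.5-fold above the highest of the 10 and C_O72 was 24.2-fold above it. Every MS_W library was above every C_W library, but in 2 of the 3 the level was about 0.01 FPKM. The estimated count of each was 4, which is no count of reads, as described below.

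Fev, the factor that switches on both of these genes in development, was at 1.37 FPKM in MS_W95 and 0.475 FPKM in C_O72. It was at 0.0549 FPKM in C_W70, 0.0369 FPKM in C_O30 and 0.0362 FPKM in MS_W31, and was listed at 0.0001 FPKM in the 7 other libraries, which include all 3 of MS_O. Together C_O72 and MS_W95 held 92.8% of the summed FPKM of Tph2 over the 12 libraries, 98.8% of that of Slc6a4 and 93.5% of that of Fev. The level in MS_W95 was above that in C_O72 by a factor of 6.55 for Tph2, 7.30 for Slc6a4 and 2.88 for Fev, whereas the hindbrain list was higher in C_O72 and the cerebellum list in MS_W95.

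**Figure D1:**
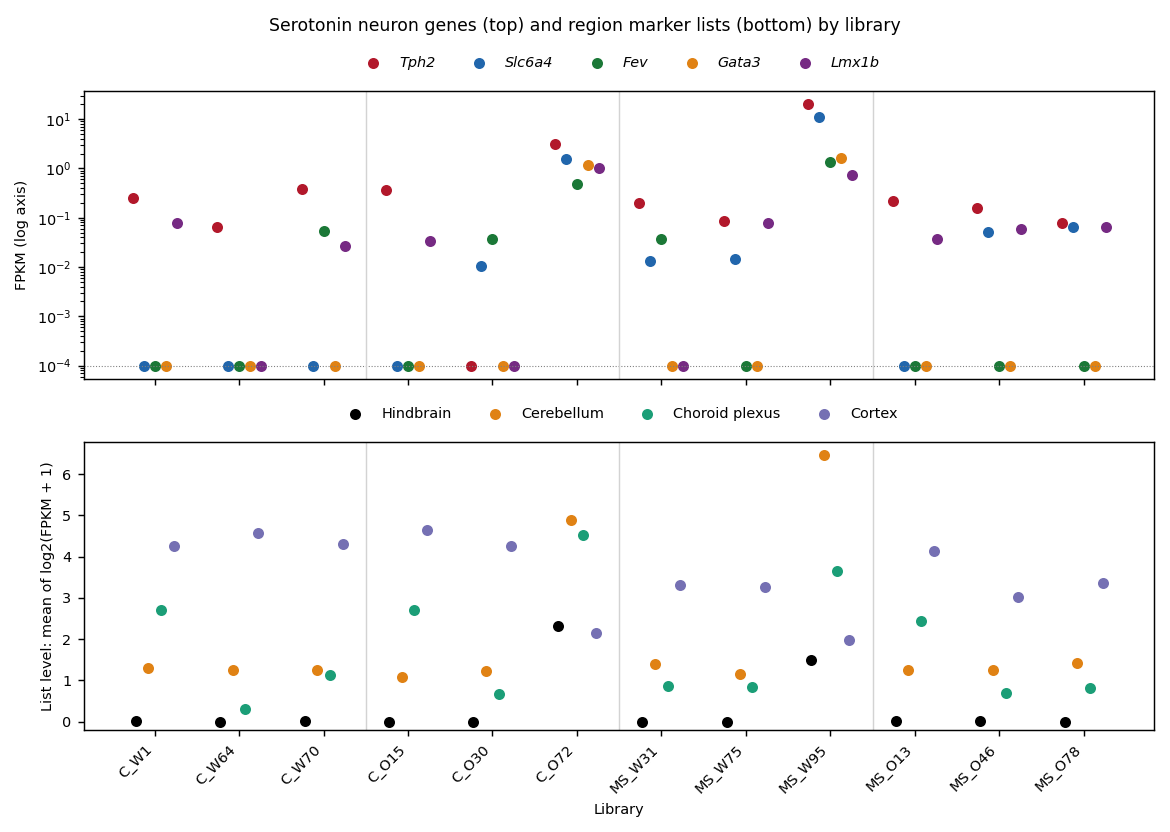
FPKM of Tph2, Slc6a4, Fev, Gata3 and Lmx1b in each of the 12 libraries (top, log axis, dotted line at 0.0001, the value for no estimate) and levels of the hindbrain, cerebellum, choroid plexus and cortex marker lists in the same libraries (bottom, each list's mean log2(FPKM + 1)). The 5 genes and the hindbrain and cerebellum lists are highest in C_O72 and MS_W95, where the cortex list is lowest.

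Other genes of serotonin neurons, from a list of 22 further genes of the pathway, had the same pattern. Gata3, a factor of hindbrain serotonin neurons, was at 1.20 FPKM in C_O72 and 1.64 FPKM in MS_W95 and was listed at 0.0001 FPKM in the other 10. Lmx1b, a factor that serotonin and dopamine neurons share, was at 1.03 FPKM in C_O72, at 0.741 FPKM in MS_W95 and at most at 0.0795 FPKM elsewhere. Slc18a2, which loads all monoamines into vesicles, was at 2.10 FPKM in C_O72, at 6.46 FPKM in MS_W95 and between 0.472 and 1.19 FPKM elsewhere. Ddc, the decarboxylase that follows Tph2 in the pathway and also serves dopamine synthesis, was at 4.81 and 8.81 FPKM and between 0.974 and 3.19 FPKM elsewhere.
In all, 10 of the 22 genes were higher in both C_O72 and MS_W95 than in any other library, and 3 were lower in both, namely the receptor genes Htr1f, Htr5a and Htr6. The other 6 of the 10 that were higher were Gata2, Gch1, Qdpr, Maoa, Maob and Slc29a4. Among the 10 members, 3 were higher in both (Tph2, Slc6a4 and Fev) and 2 were lower in both (Htr2a and Htr3a), against the 28.1% of tested genes that did either. Slc6a4 and Fev were among the tested genes only because C_O72 and MS_W95 were high, so they lend this count no support. The same holds for Gata3 and Lmx1b in the count over the 22 genes. Of those 22 genes 19 were tested, whereas the share of 28.1% is over tested genes. In bulk tissue, fewer cells of a type and less RNA per cell cannot be told apart.

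None of Tph2, Slc6a4 and Fev passed the limma test in any of the 4 comparisons, whose log2 fold changes ran from -1.40 to 1.31 for Tph2, from -1.16 to 1.22 for Slc6a4 and from -0.43 to 0.41 for Fev. With C_O72 and MS_W95 left out, they ran from -0.10 to 0.01 for Tph2, from 0.01 to 0.05 for Slc6a4 and from -0.03 to 0.00 for Fev. In those 10 libraries no level of the 3 genes was above 0.389 FPKM. On these libraries alone Slc6a4 (at most 0.0638 FPKM) and Fev (at most 0.0549 FPKM) would not have passed the filter. On the estimated counts of all 12 libraries, edgeR called Tph2 and Slc6a4 higher in MS_W than in C_W, edgeR also called Tph2 in MS_W vs MS_O, and DESeq2 called Fev there. MS_W95 was the only MS_W library above 0.202 FPKM of Tph2, 0.0143 FPKM of Slc6a4 and 0.0362 FPKM of Fev.

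The receptor genes were read in every library. On mm10, Htr1a lies at chr13:105443639-105448122, Htr2a at chr14:74640840-74709494, Htr2c at chrX:146962513-147197277, Htr3a at chr9:48899213-48911099 and Htr7 at chr19:35958734-36057373. By their median FPKM over the 12 libraries, the order was Htr2c (6.22), Htr2a (4.74), Htr1a (3.74), Htr3a (3.66), Htr1b (3.15), Htr7 (1.99) and Htr4 (0.286), followed by Tph2 (0.212), Slc6a4 (0.0118) and Fev (0.0001). FPKM is a level per transcript length, so genes can be set beside each other. Most neighbours in this order changed places in some libraries, and levels were not tested between genes: Htr2c was above Htr2a in 7 of 12 libraries, Htr2a above Htr1a in 9, Htr1a above Htr3a in 9, Htr3a above Htr1b in 7 and Htr1b above Htr7 in 9. Htr7 was above Htr4 in all 12 libraries and Tph2 above Slc6a4 in 11, whereas Htr4 was above Tph2 in only 6. The median over all tested genes was 2.24 FPKM, and Htr2c stood above 70.2% of them.

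Htr1b, which encodes a receptor that sits largely on axon terminals and holds back release of serotonin and other transmitters, differed most clearly between groups. It was at 1.97, 1.92 and 2.07 FPKM in C_W, at 3.42, 3.22 and 3.07 FPKM in C_O, at 5.27, 5.71 and 4.13 FPKM in MS_W and at 3.69, 2.13 and 1.54 FPKM in MS_O. MS_W lay above all other groups without overlap, and C_O lay above C_W without overlap, whereas MS_O overlapped both control groups. Mean FPKM was 1.99 ± 0.08 for C_W, 3.24 ± 0.17 for C_O, 5.04 ± 0.81 for MS_W and 2.45 ± 1.11 for MS_O (SD, n = 3 each).

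Htr2c, a receptor gene known for its high level in the choroid plexus and for RNA editing of its message, was at 2.62, 1.72 and 3.15 FPKM in C_W, at 2.23, 7.54 and 9.88 FPKM in C_O, at 9.23, 11.3 and 7.53 FPKM in MS_W, and at 3.97, 6.72 and 5.71 FPKM in MS_O. All MS_W libraries lay above all C_W and all MS_O libraries. The C_O libraries ran from the C_W range to the MS_W range. Mean FPKM was 2.50 ± 0.72 for C_W, 6.55 ± 3.92 for C_O, 9.34 ± 1.86 for MS_W and 5.47 ± 1.39 for MS_O (SD, n = 3 each).

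Htr4 was low throughout. It was at 0.144, 0.203 and 0.286 FPKM in C_W, at 0.159, 0.287 and 0.200 FPKM in C_O, at 0.610, 0.886 and 0.321 FPKM in MS_W, and at 0.115, 0.545 and 0.295 FPKM in MS_O. MS_W lay above both control groups without overlap, while MS_O spanned the control range and part of the MS_W range.

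Htr2a, the receptor gene of cortical pyramidal neurons and a target of psychedelic drugs, and Htr3a, the channel subunit known for a class of cortical interneurons, were lowest in the same libraries. Htr2a was at 4.41, 7.22 and 5.02 FPKM in C_W, at 5.69, 5.88 and 1.19 FPKM in C_O, at 4.21, 4.93 and 0.867 FPKM in MS_W, and at 6.65, 4.25 and 4.56 FPKM in MS_O. Htr3a was at 3.65, 4.04 and 3.41 FPKM in C_W, at 3.47, 3.75 and 1.77 FPKM in C_O, at 4.27, 2.98 and 0.337 FPKM in MS_W, and at 3.66, 5.88 and 6.06 FPKM in MS_O. In both genes the lowest values were those of C_O72 and MS_W95. With and without these libraries, the groups of Htr2a overlapped in all 4 comparisons. The MS_O mice 46 and 78 had more Htr3a than any other mouse, and their libraries also had the highest levels of the olfactory bulb list (4.74 and 4.81, against 0.96 to 3.43 in the others); the part of tissue composition in this was not tested.

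Htr1a, which encodes the autoreceptor of serotonin neurons and a receptor of hippocampus and cortex, was at 3.65, 4.87 and 3.57 FPKM in C_W, at 4.30, 3.83 and 3.02 FPKM in C_O, at 5.01, 3.88 and 2.99 FPKM in MS_W, and at 4.52, 2.47 and 2.29 FPKM in MS_O. In the libraries with high Tph2 it was at 3.02 and 2.99 FPKM, inside the range of the other 10. Htr7 was at 1.23 to 2.60 FPKM over all libraries, with a median of 2.25 FPKM for C_W, 2.05 for C_O, 1.59 for MS_W and 1.92 for MS_O. The groups overlapped for both genes in all 4 comparisons.

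**Figure D2:**
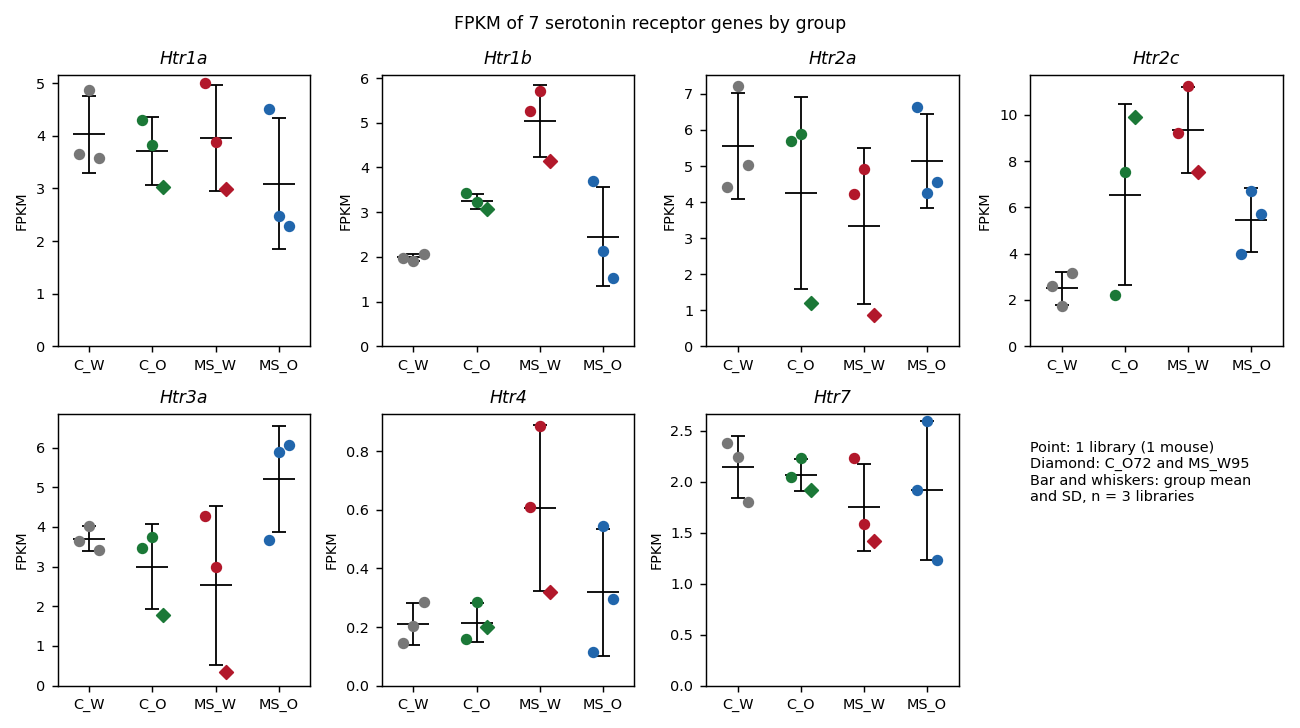
FPKM of the 7 receptor genes in the 4 groups, with 1 point per library, diamonds for C_O72 and MS_W95, and a bar and whiskers for the group mean and SD (n = 3). Htr1b in MS_W (4.13 to 5.71 FPKM) lies above all libraries of the other groups, and the diamonds are the lowest points for Htr2a and Htr3a.

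The comparison of C_W with MS_W asks what CUMS did in mice given water. By the criteria of the study, an unadjusted p under 0.05 and a ratio of group means above 2 in either direction, 3 of the 10 members differed, all higher in MS_W, whereas 4.59% of all tested genes differed in one direction or the other. They were Htr1b, with a log2 fold change of 1.01 ± 0.20 (SE, limma on log2(FPKM + 1), adjusted p = 0.167), Htr2c, with 1.57 ± 0.39 (adjusted p = 0.275), and Htr4, with 0.39 ± 0.14 (adjusted p = 0.391). The median log2 fold change was 0.40 over the members and 0.062 over all tested genes. After adjustment over all tested genes by the method of Benjamini and Hochberg, no member passed 0.05 in limma (3 had an unadjusted p under 0.05) or in edgeR on the estimated counts (5 unadjusted), whereas DESeq2 put Htr2c and Htr1b past it (adjusted p = 0.00861 and 0.011). Only 0.00467% of tested genes passed in limma. The groups did not overlap for 4 members (these 3 and Slc6a4), against 24.6% of tested genes. An exact permutation test of 3 mice against 3 cannot give a two-sided p below 0.1.

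Without C_O72 and MS_W95 the same 3 genes were called, against 5.81% of tested genes. The log2 fold changes were 1.12 ± 0.22 for Htr1b (limma, adjusted p = 0.059), 1.70 ± 0.38 for Htr2c (adjusted p = 0.0902) and 0.53 ± 0.14 for Htr4 (adjusted p = 0.133). In these 10 libraries MS_W and C_O held 2 mice each.

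Markers of the striatum were also higher in MS_W31 and MS_W75 than in C_W. The level of the striatum list (Drd1, Drd2, Adora2a, Ppp1r1b and 4 others) was 2.04 to 3.06 in C_W, 4.97 in MS_W31, 5.57 in MS_W75, 1.86 in MS_W95, 3.86 to 4.77 in MS_O, 3.92 in C_O15, 4.47 in C_O30 and 1.80 in C_O72. The 2 libraries with the highest levels of this list, MS_W31 and MS_W75, were also the 2 highest for Htr1b and for Htr4. MS_W95 had a striatum list below every C_W library, and had 4.13 FPKM of Htr1b, 7.53 FPKM of Htr2c and 0.321 FPKM of Htr4, each above every C_W library. The hypothalamus list (Avp, Oxt, Pomc and others) was at 3.13 in MS_W31 and 2.39 in MS_W75 and at 0.35 to 1.48 in the other libraries. Beside Htr2c, the choroid plexus list was at 4.53 in C_O72 and 3.65 in MS_W95, at 0.87 in MS_W31 and 0.84 in MS_W75, the libraries with 9.23 and 11.3 FPKM of Htr2c, and at 2.71 in C_W1, with 2.62 FPKM. The choroid plexus gene Ttr (transthyretin) ranged from 1.88 FPKM in C_W64 to 4772 FPKM in C_O72. The cortex, neuron, astrocyte, hypothalamus, midbrain dopamine and thalamus lists separated all 3 MS_W from all 3 C_W libraries, MS_W95 included. The cortex list was at 1.97 to 3.32 in MS_W and 4.25 to 4.57 in C_W, and the neuron list at 6.83 to 7.14 and 7.35 to 7.48. Lists higher in MS_W were astrocyte, at 4.67 to 5.48 against 4.27 to 4.52, and hypothalamus, at 0.86 to 3.13 against 0.43 to 0.76. So were midbrain dopamine (Th, Slc6a3 and others), at 1.21 to 1.40 against 0.65 to 1.12, and, by a narrow margin, thalamus. The part of these regions and cell types in the differences was not tested.

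**Figure D3:**
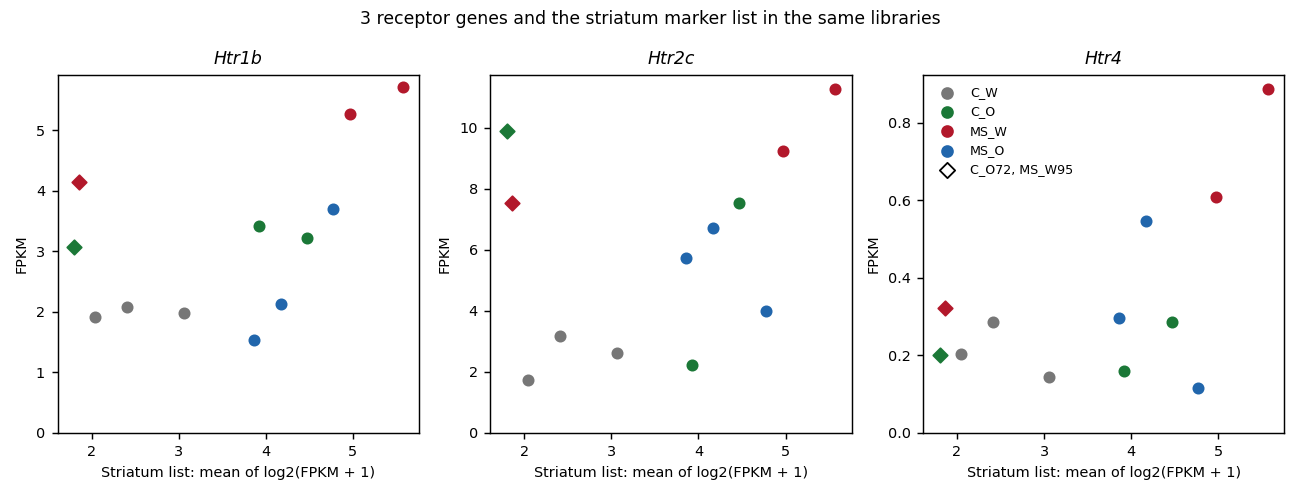
FPKM of Htr1b, Htr2c and Htr4 (vertical axes) against the level of the striatum marker list (horizontal axes, mean of log2(FPKM + 1) over 8 genes) in the 12 libraries, coloured by group, with diamonds for C_O72 and MS_W95. MS_W31 and MS_W75 are at the right end of the list, while MS_W95 and C_O72 are at the left end with receptor levels inside the range of the others.

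Htr1b lies at chr9:81628291-81633828 on the minus strand, and an exon of the gene D430036J16Rik on the other strand overlaps it. How the counting used strand is not given in the sources used here, so reads of the overlap may have been given to either gene. D430036J16Rik was at 0.981 FPKM in MS_W31 and 0.885 FPKM in MS_W75, but at 0.322 FPKM in MS_W95, and at 0.175 to 0.928 FPKM in the other libraries, below Htr1b in every library.

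The comparison of C_O with MS_O asks what CUMS did in mice given krill oil. None of the 10 members was called, against 3.57% of all tested genes, and none had an unadjusted p under 0.05 in limma, edgeR or DESeq2. The members' log2 fold changes ran from -0.63 to 0.65 with a median of -0.15. All members overlapped between the groups, whereas 12.2% of tested genes did not, and 0.00467% passed the adjusted threshold. With 10 libraries the count was also 0, against 4.28%.

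The comparison of C_W with C_O asks what krill oil did without stress. Htr2c was called, with a log2 fold change of 0.96 ± 0.39 (limma, adjusted p = 0.908), and was the only member called, against 1.76% of all tested genes. Htr1b had an unadjusted p under 0.05 but a change below 2-fold, at 0.50 ± 0.20 (limma, adjusted p = 0.908), and was the only member whose groups did not overlap, against 9.42% of tested genes. No gene of the table (0%) passed the adjusted threshold in limma. The call of Htr2c ended when C_O72 (9.88 FPKM), C_O30, C_W1 or C_W64 was left out. Without C_O72 and MS_W95 no member was called, against 1.64% of tested genes, and Htr2c was at 0.61 ± 0.38 (limma, adjusted p = 1). Htr1b had an unadjusted p under 0.05 in those 10 libraries too, at 0.53 ± 0.22 (limma, adjusted p = 1).

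The comparison of MS_W with MS_O asks what krill oil did under stress. Htr1b was lower in MS_O, with a log2 fold change of -0.85 ± 0.20 (limma, adjusted p = 0.442), and Htr3a was higher, with 1.01 ± 0.43 (limma, adjusted p = 0.815). These were the members called, against 2.81% of all tested genes. The groups did not overlap for Htr1b and Htr2c, both lower in MS_O, against 12.3% of tested genes. As in C_W vs MS_W, 0.00467% of tested genes passed the adjusted threshold, and no member did, though with limma's array weights Htr1b had an adjusted p of 0.015. The share of tested genes that passed with array weights is not given here. The call of Htr3a held in 11 of 25 alternatives and ended without MS_W95 (0.337 FPKM). Without C_O72 and MS_W95 it was at 0.41 ± 0.20 (limma, adjusted p = 0.616). In those 10 libraries Htr1b (-0.96 ± 0.22, adjusted p = 0.21) and Htr4 (-0.42 ± 0.14, adjusted p = 0.455) were called in limma, both lower in MS_O, against 3.36% of tested genes.

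C_W vs MS_W and MS_W vs MS_O share the MS_W mice, so a high level in MS_W gives a rise in the first and a fall in the second by construction. The fold changes of Htr1b were 1.01 and -0.85, those of Htr2c 1.57 and -0.68, and those of Htr4 0.39 and -0.28, of which the second values of Htr2c and Htr4 did not pass the test with 12 libraries. The difference between the CUMS effects with and without krill oil was tested as an interaction. It had an unadjusted p under 0.05 for 2 of 10 members, against 7.23% of tested genes. For Htr1b the CUMS effect was lower in krill oil by a log2 difference of -1.35 ± 0.28 (limma, adjusted p = 0.382), and for Htr2c by -1.64 ± 0.55 (limma, adjusted p = 0.665). With 10 libraries these were -1.49 ± 0.31 for Htr1b (limma, adjusted p = 0.207) and -1.42 ± 0.54 for Htr2c (limma, adjusted p = 0.595). DESeq2 on the estimated counts gave Htr1b an adjusted p of 0.0264 and no other member one under 0.05, and edgeR gave none.

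**Figure D4:**
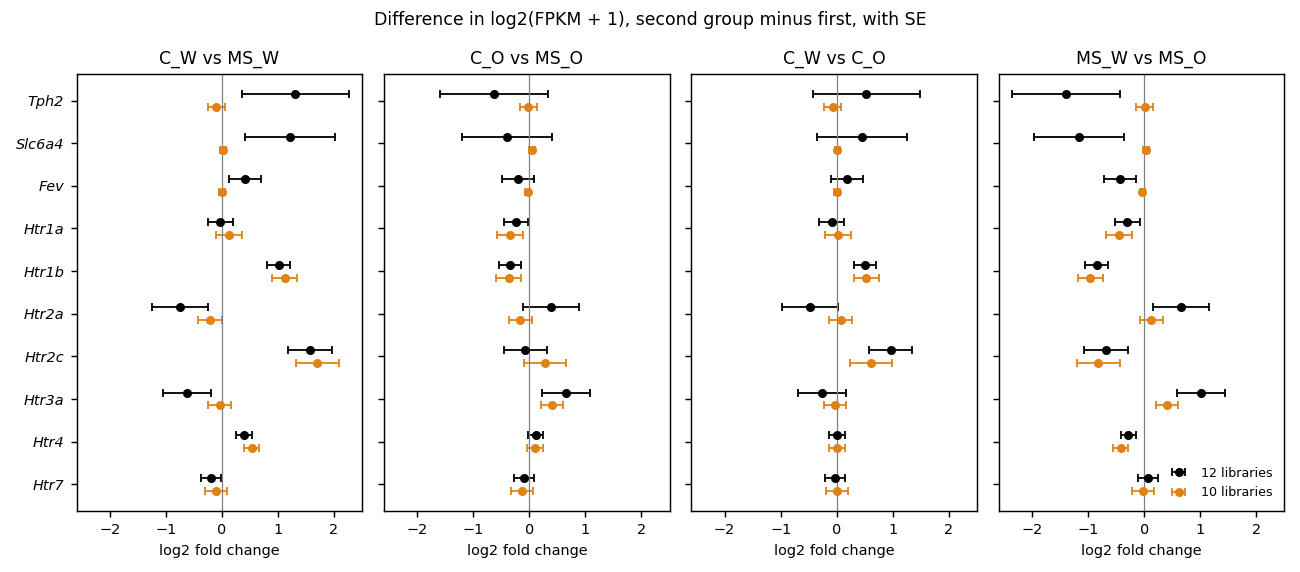
Log2 fold changes (second group minus first, on the log2(FPKM + 1) scale) of the 10 members in the 4 comparisons, with bars for the SE, from all 12 libraries (black) and from the 10 libraries other than C_O72 and MS_W95 (orange). Htr1b is at 1.01 and 1.12 in C_W vs MS_W and at -0.85 and -0.96 in MS_W vs MS_O, whereas Tph2 moves from 1.31 to -0.10 in the first.

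Of the 22 further pathway genes, 19 passed the filter. In C_W vs MS_W limma called 4, all higher in MS_W, against 4.59% of all tested genes: Ddc (log2 fold change 1.19 ± 0.44, limma adjusted p = 0.396), the low-affinity monoamine transporter genes Slc29a4 (1.56 ± 0.60, adjusted p = 0.422) and Slc22a3 (0.42 ± 0.18, adjusted p = 0.46), and the receptor gene Htr1d (0.94 ± 0.42, adjusted p = 0.472). Ddc was at 1.14 to 1.55 FPKM in C_W, at 2.73 and 3.19 FPKM in MS_W31 and MS_W75, and at 8.81 FPKM in MS_W95. The groups of Htr1d overlapped. It was at 0.111 to 0.325 FPKM in C_W, at 2.15 and 2.22 FPKM in MS_W31 and MS_W75, and at 0.321 FPKM in MS_W95. Without C_O72 and MS_W95, Ddc was at 0.75 ± 0.13 and passed the adjusted threshold (limma, adjusted p = 0.0393). The share of tested genes that passed it in those 10 libraries is not given here, so this pass has no background beside it. By the criteria of the study the same count of 4 was called in those 10 libraries, against 5.81% of tested genes. In C_O vs MS_O limma called 3, all higher in MS_O, namely Slc22a3 (0.59 ± 0.18), Htr5b (0.60 ± 0.19) and Htr1f (0.45 ± 0.19), against 3.57% of tested genes. With 10 libraries Slc22a3 (0.50 ± 0.18) and Htr5b (0.48 ± 0.21) were called and Htr1f (0.28 ± 0.14) was not. In C_W vs C_O limma called 0, against 1.76%, with 12 or 10 libraries, whereas edgeR and DESeq2 called 1 each. In MS_W vs MS_O limma called Htr1f (0.50 ± 0.19) higher and Ddc (-0.99 ± 0.44) lower in MS_O, against 2.81%. Neither was called with 10 libraries, where Htr1f was at 0.33 ± 0.14 (limma, unadjusted p = 0.0432) and Ddc at -0.55 ± 0.13 (limma, unadjusted p = 0.00256). Both missed the call there only because the ratio of group means was not above 2. With 12 libraries no gene of the list passed the adjusted threshold in limma, edgeR or DESeq2.

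The genes whose log2(FPKM + 1) followed each member most closely over the 12 libraries were picked by Pearson's r, as a description. For Slc6a4 they were the transcription factor genes En1 and Pou4f1 and the gene Gm39465 (r = 1.000 each), and for Tph2 they were Dnah6, A930017K11Rik and Pou4f2 (0.994 to 0.995). Over the other 10 libraries r was 0.802 for Tph2 with Dnah6, 0.534 for Tph2 with A930017K11Rik and 0.779 for Slc6a4 with Gm39465, and none could be computed for En1, Pou4f1 and Pou4f2, whose listed values there did not vary. Htr2a followed Tbr1, a factor of deep-layer cortical neurons (0.979), Gabra3 and Dlgap2. Htr1b followed Dach1 (0.933, and 0.963 over the other 10 libraries), Ric8b and Mttp, and Htr2c followed Slc38a10 (0.932), Nrsn2 and Acss1. The libraries share their tissue make-up across genes, and nothing on shared control follows from these values.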

How the data were processed

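Poly(A) RNA of 12 mouse brains was sequenced in paired ends. FPKM per gene came from the authors, whose processing notes name cutadapt 1.9, HISAT2 2.0.4, mm10 and StringTie 1.3.4d, with a gene without an estimate listed at 0.0001. The deposited estimated counts equal FPKM multiplied by transcript length and by 1 factor for each library (median deviation 0.0186% over 1196 genes with a single transcript), so they are no counts of reads and support no counting interval; they summed to 50912906 to 75678721 per library. edgeR and DESeq2 are also named in those notes.

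Groups were tested with limma 3.58.1 (R 4.3.3) on log2(FPKM + 1), using eBayes with a mean-variance trend. A single fit of 4 groups covered the 21393 genes whose mean FPKM reached 0.1, with Benjamini-Hochberg adjustment over all of them. A log2 fold change on this scale understates the change of low genes, such as Htr4. A gene was called at an unadjusted p under 0.05 and a ratio of group mean FPKM above 2 in either direction. Alternatives were other pseudocounts, filters and scalings, robust eBayes, array weights, edgeR 4.0.16 and DESeq2 1.42.0 on the rounded estimated counts, and fewer libraries. The limma, edgeR and DESeq2 fits were tested on simulated data. The members, the marker lists, the 22 pathway genes and the tests were chosen with earlier results of these data known. Each member is named, with fold change, SE and p where its unadjusted p was under 0.05. Pathway genes are named where called or by range, and the 3 genes most like a member were taken at a mean FPKM of at least 1 (at the filter for Tph2, Slc6a4 and Fev). The region lists were checked in every library. One listed gene is not reported here and was left out of the hindbrain list. The paper speaks of separate cages and lists social isolation among the stressors, but gives no cage or batch for each mouse. The p-values therefore measure the spread between these mice, which includes the distance of C_O72 and MS_W95 from the other libraries. A comparison of the receptor proteins was not made.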

Additional observations from a re-analysis of the deposited data

Results flagged for a closer look

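Results are listed here where the effect of CUMS differed between mice given water and mice given krill oil by a test of the difference itself. For Htr2c the difference of log2 fold changes, krill oil minus water, was -1.64 (limma, adjusted p = 0.665), and for Htr1b it was -1.35 (limma, adjusted p = 0.382). Neither passed the threshold after adjustment over all tested genes. Groups of 3 mice are too small for a test of single libraries as outliers.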

How the results depend on the processing

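No paired analysis was possible because the groups share no mouse number. The 24 or 25 alternatives kept the direction of each member change named above. Htr1b and Htr2c in C_W vs MS_W and Htr1b in MS_W vs MS_O passed an unadjusted 0.05 in all 25, and both interactions in all 24. Htr1b in C_W vs MS_W had an adjusted p of 0.00458 to 0.497 and Htr2c of 0.00861 to 0.624. With array weights the adjusted p was 0.0375 for Htr4 in C_W vs MS_W, 0.015 for Htr1b in MS_W vs MS_O and 0.0368 for the Htr1b interaction. The share of all genes that passed with array weights is not given here, so these values have no background beside them. Htr4 in C_W vs MS_W missed 0.05 with libraries centred on their median (log2 fold change 0.31), without C_W1 (0.35) and without MS_W75 (0.27), against 0.39 with all libraries. It was 1.12 with a pseudocount of 0.1, 1.41 with 0.01 and 1.43 with edgeR and with DESeq2. Htr3a in MS_W vs MS_O passed in 11 of 25.

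In C_W vs MS_W the members called were 5 of 9 tested with edgeR (Tph2 and Slc6a4 added, both high in MS_W95 alone among the MS_W libraries), 2 (without Htr4) with a mean FPKM of at least 1, with libraries centred on their median and with the fold taken from log2(FPKM + 1), and 2 to 4 with 1 library left out (2 without C_W1 or MS_W75, 4 without MS_W31, which added Htr3a). The share of all genes called by edgeR is not given here, so its count has no background beside it. In C_W vs C_O they were 0 with array weights, with the fold taken from log2(FPKM + 1), with only the 2 groups compared and with 10 libraries, and 0 to 1 with 1 library left out (0 without C_W1, C_W64, C_O30 or C_O72). In MS_W vs MS_O they were 1 with a pseudocount of 0.1 or 0.01, no filter, the fold from log2(FPKM + 1), only the 2 groups compared, edgeR (Tph2) or DESeq2 (Fev), and 0 to 2 with 1 library left out (0 without MS_O78). The interaction count was 4 with edgeR, an alternative that was added after seeing the data. The cause of these shifts was not tested.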
